A study of Homo sapiens with 4 samples.

Results

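Filamins, alpha-actinins, spectrins, plakins and non-muscle myosin II hold actin filaments together in networks and bundles, and 6 genes of these families were examined here for RNA enriched with YTHDF2. The 6 genes were FLNA, ACTN1, ACTN4, PLEC, SPTAN1 and MYH9. Their members in the data are peaks: a peak was given to the gene named in its exon or intron annotation, and any other peak to the gene whose span holds the summit. This gave 21 of the 14858 peaks of the deposited list. They lay in 4 of the 6 genes, with 10 peaks in FLNA, 6 in PLEC, 3 in MYH9 and 2 in ACTN4. ACTN1 and SPTAN1 had none. The genes were selected on this list, by the folds, q-values and numbers of peaks it gives them, so the folds and counts of their peaks are descriptions and carry no test.

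The peaks came from HCCLM3, a metastatic human hepatocellular carcinoma cell line, labelled wild type and without a stated treatment. There were 2 libraries of RNA immunoprecipitated with YTHDF2 (RIP) and 2 of the input RNA. YTHDF2 is a cytoplasmic reader of N6-methyladenosine (m6A), a methyl mark on mRNA that is found mostly in long exons and around stop codons, and it is best known for recruiting a deadenylase that starts mRNA decay. The series addresses how YTHDF2 and CRTC2, a coactivator of CREB, handle m6A-modified mRNA in shared condensates. No library was a pulldown with a control antibody, so a peak shows more RIP than background and not binding as such. The authors deposited 1 list over the combined libraries. It has no value per library, so no spread between replicates can be given.

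Filamin A, from FLNA, is a long rod that dimerises and crosses actin filaments at wide angles, and it also ties them to integrins and other membrane proteins. Alpha-actinin 1 and 4, from ACTN1 and ACTN4, are antiparallel dimers that bundle filaments. Both are made in non-muscle cells, at focal adhesions and along stress fibres. Plectin, from PLEC, is a giant plakin that links intermediate filaments to actin and to hemidesmosomes, and in hepatocytes it binds the keratin network. SPTAN1 encodes the non-erythroid alpha-spectrin of the membrane skeleton. MYH9 encodes the heavy chain of non-muscle myosin IIA, the motor that pulls on actin bundles.

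For each peak 4 quantities are used below. The fold enrichment and the q-value are the authors' own for that peak, and a peak passed where its q was 0.01 or less (a −log10 q of at least 2). The number of RIP fragments at the summit and the background there were recovered from the deposited fold and p-value. The background is the scaled input, or the genome-wide level of 0.533 fragments where that is higher, and 1 input fragment counted as 0.68 RIP fragments. The ratio of RIP fragments to background is given with an exact 95% interval. This interval covers counting error only. It does not cover variation between cultures or PCR copies, nor the fact that the summit is the highest point of its peak. Over the list the median peak had 12 RIP fragments (quartiles 4 and 60).

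Of the 21 peaks, 13 passed, and 37.3% of all peaks of the list did. FLNA had 8 passing peaks, ACTN4 had 2, PLEC had 2 and MYH9 had 1. All 13 were exon or 3' UTR peaks, out of 16 peaks of those classes. In the list, 45.5% of exon peaks and 50.9% of 3' UTR peaks passed. None of the 5 intron peaks in PLEC and MYH9 passed, nor did most intron peaks of the list, where 7.26% did. The members' exon and 3' UTR peaks rested on many fragments, since 15 of them had 100 or more RIP fragments, a number reached by 14.2% of the list. That share is over all classes, intron peaks included. By class, the median of the list was 18 RIP fragments for exon peaks and 43 for 3' UTR peaks.

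**Figure D1:**
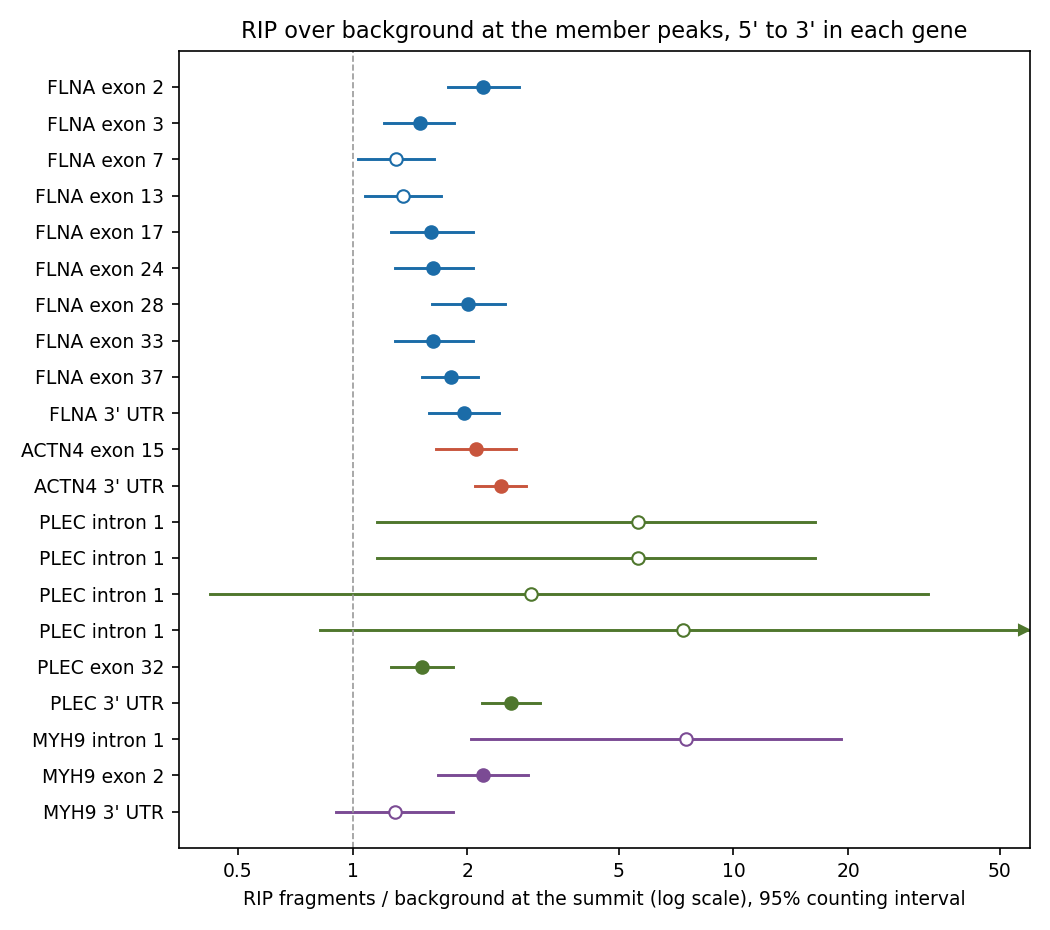
Ratio of RIP fragments to background at the summit of each of the 21 peaks on a log scale, ordered 5' to 3' within each gene, with exact 95% counting intervals. Filled circles are peaks with a q of 0.01 or less and open circles the others, the dashed line marks equal RIP and background, and the arrow marks an interval that runs past the axis. The exon and 3' UTR peaks have short intervals between about 1 and 3, and the intron peaks rest on 3 to 5 fragments with long ones.

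FLNA carried the longest row of peaks among the 6 genes. By number of peaks, passing or not, it ranked 19th among the genes of the list. Its 10 peaks ran from exon 2 of 48 to the 3' UTR and together covered 6872 bases, or 26.3% of the gene span on chromosome X (hg38, 154348531 to 154374634, minus strand). No other gene of the list had as many passing peaks as its 8, and the next highest number was 6, in 10 genes. Of the 3951 genes with a passing peak, 76.5% had 1.

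The strongest FLNA peak lay at exon 2 (154370662 to 154371026), 3721 bases into the gene at its summit. It had 223 RIP fragments over a background of 101 (149 input fragments), a deposited fold of 2.19 and a −log10 q of 21.0. The ratio was 2.20 with a counting interval of 1.78 to 2.73. The list holds 168 peaks with at least as many RIP fragments.

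The next 3 peaks downstream, at 26.2%, 31.9% and 38.3% of the way along the gene, had the lowest folds in FLNA. At exon 3 (154367170 to 154367900) there were 184 RIP fragments over 123, a fold of 1.49. At exon 7 (154365810 to 154366620) there were 141 over 109, a fold of 1.29, and at exon 13 (154363837 to 154364668) 147 over 108, a fold of 1.36. The exon 7 and exon 13 peaks did not pass, with −log10 q of 0.359 and 1.14, while exon 3 did with 3.93.

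Exon 17 (154361914 to 154362507) had 136 RIP fragments over 84.3, a fold of 1.61, and its −log10 q was 4.06. Exon 24 (154358776 to 154359618) and exon 33 (154353882 to 154354409) each had 152 RIP fragments over 137 input fragments, which gave the same fold of 1.63 and −log10 q of 4.98. The exon number is the authors' for the peak, and a wide peak can span several exons. These were the only 2 peaks of the list with that pair of numbers. Between them, exon 28 (154357985 to 154358322) stood higher, with 201 RIP fragments over 99.9, a fold of 2.0, and its −log10 q was 14.9.

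The 3' end was again on the high side. The peak at exon 37 (154352054 to 154353451) was 1398 bases wide, the 51st widest of the list, and its summit had 195 RIP fragments over 108, a fold of 1.80. Its background came from a window of 1000 bases around the summit, in which there were 504 input fragments. The 3' UTR peak (154348377 to 154348808) had 216 RIP fragments over 110, a fold of 1.95, and its −log10 q was 14.9. Its summit was 184 bases from the annotated end of the gene, and the peak ran 154 bases past that end.

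Along FLNA, RIP fragments ranged from 136 to 223, a 1.64-fold span, and backgrounds from 84.3 to 123, a 1.46-fold span. Of the 45 pairs of peaks, 2 had counting intervals that did not overlap, and both set exon 2 (1.78 to 2.73) against a weak peak, exon 7 (1.03 to 1.64) or exon 13 (1.08 to 1.71). A peak list holds no value for the stretches between peaks, so what the other exons did was not measured.

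**Figure D2:**
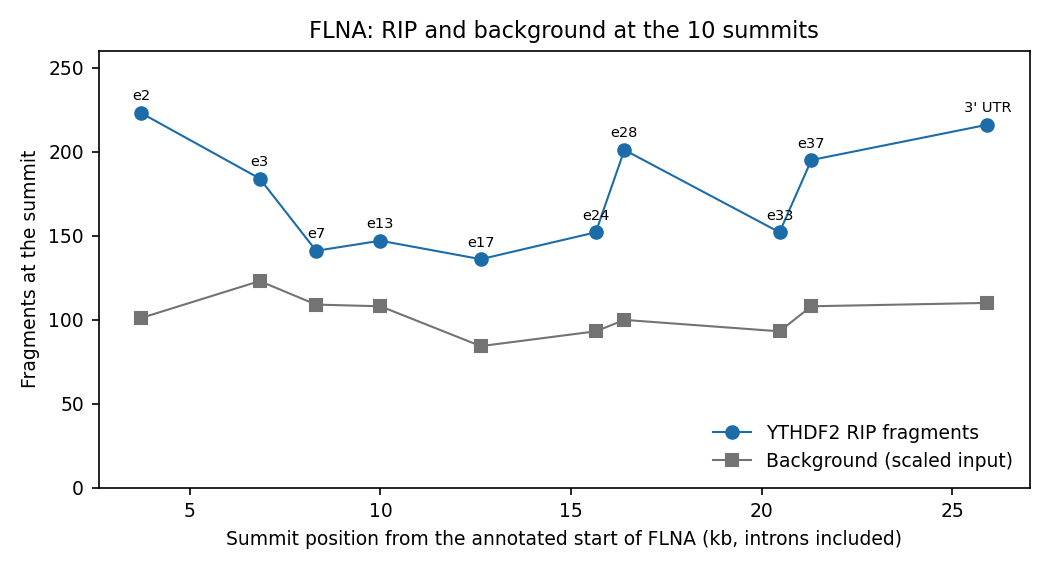
Fragments at the summits of the 10 FLNA peaks against the distance of the summit from the annotated gene start in kb, introns included. Blue circles are YTHDF2 RIP fragments, grey squares the background at the same summit, the labels give exon numbers, and lines join summits only to guide the eye. RIP lies above background at every summit and is highest at exon 2 (223) and in the 3' UTR (216), while the background stays between 84.3 and 123.

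ACTN4 had fewer peaks than FLNA but the member peak with the highest −log10 q. The gene lies on chromosome 19 (38647649 to 38731589, plus strand), and the summits of its peaks lay 91.6% and 98.3% of the way along it. The 3' UTR peak (38729893 to 38730606) had 243 RIP fragments over a background of 99.4, a fold of 2.43, and its −log10 q was 29.1, and 104 peaks of the list had as many fragments or more. The exon peak, at exon 15 of 21 (38724229 to 38724838), had 169 RIP fragments over 80.2, a fold of 2.09, and its −log10 q was 13.9. Their counting intervals, 2.09 to 2.86 for the 3' UTR and 1.66 to 2.69 for exon 15, overlapped. The backgrounds came from windows of 1000 bases for the 3' UTR and 315 bases for exon 15.

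The deposited annotation named neither ACTN4 peak for ACTN4. It gave both to CAPN12, a calpain protease gene on the opposite strand whose start site was the nearest one. CAPN12 spans 38730192 to 38744693, so the 2 genes overlap at their 3' ends, and 415 bases of the 3' UTR peak lay inside CAPN12. The summit was in ACTN4 and 59 bases outside CAPN12. The peaks carry no strand, so RNA of the 2 genes in the overlap cannot be told apart. The exon 15 peak lay outside CAPN12.

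ACTN1, the other non-muscle alpha-actinin, had no peak within its span on chromosome 14 (68874128 to 68979302) or within 3000 bases of it. The same was true of SPTAN1 on chromosome 9 (128552587 to 128633662). A list of peaks gives no level for a gene without one, so this does not say whether the RNAs were present in the input or in the RIP.

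PLEC lies on chromosome 8 (143915153 to 143976745, minus strand) and had passing peaks at its 3' end and peaks that did not pass nearer its start. The 3' UTR peak (143915034 to 143915739) had 136 RIP fragments over a background of 52.1, a 2.58-fold enrichment, and its −log10 q was 17.9. That was the highest fold of any passing member peak. The background there was the mean of a 10000-base window holding 2435 input fragments, because that mean was higher than the input at the summit itself. The summit was 71 bases from the annotated end, and the peak ran 119 bases past it.

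The other passing PLEC peak lay in the last exon, exon 32 (143918923 to 143919318), which in plectin is very long and encodes the plakin repeats of the C-terminus that bind intermediate filaments. It had 235 RIP fragments, almost as many as the ACTN4 3' UTR, but the background was 155, a level reached by only 45 peaks of the list. The fold was 1.51 and the −log10 q was 5.87. The counting intervals of the PLEC 3' UTR (2.18 to 3.10) and of exon 32 (1.26 to 1.83) did not overlap. This describes peaks that the choice of genes used and is no test, and their backgrounds came from windows of 10000 and 315 bases.

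The 4 remaining PLEC peaks lay in intron 1, within a stretch of the gene that holds alternative first exons. They had 3, 3, 4 and 5 RIP fragments over backgrounds of 0.533, 0.533, 1.36 and 0.68. Their folds were 2.61, 2.61, 2.12 and 3.57. None passed, and their −log10 q were 0.166, 0.166, 0 and 1.41. The fold of 2.61 is what 3 fragments give over the genome-wide level, and 1576 peaks of the list had exactly these numbers. The peak of 3.57 had a counting interval of 0.823 to 348, which leaves its ratio undetermined.

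MYH9, on chromosome 22 (36281280 to 36387967, minus strand), had its passing peak near the 5' end of the mRNA and not in the 3' UTR. At exon 2 of 41 (36348658 to 36348989) there were 139 RIP fragments over a background of 63.2, a fold of 2.18, and its −log10 q was 12.5. The 3' UTR peak (36281276 to 36281647) had 64 RIP fragments over 49.6, a fold of 1.28, and its −log10 q was 0. The ratio in the 3' UTR had a counting interval of 0.907 to 1.83, which includes equal RIP and background. It overlapped the interval of exon 2, 1.68 to 2.89. The intron 1 peak (36357356 to 36358160) had 4 RIP fragments over the genome-wide level, a fold of 3.26, and its −log10 q was 0.995. The list named the 3' UTR peak for MIR6819, a microRNA gene inside MYH9, because its start site was the nearest.

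Set side by side, the 4 genes with peaks all had a peak in the 3' UTR, with a summit 71 bases from the annotated end in PLEC, 184 in FLNA, 331 in MYH9 and 1456 in ACTN4. The 3' UTR folds were 2.58 in PLEC, 2.43 in ACTN4, 1.95 in FLNA and 1.28 in MYH9. The counting intervals of PLEC, ACTN4 and FLNA overlapped (2.18 to 3.10, 2.09 to 2.86 and 1.59 to 2.42), and their order was not tested. The MYH9 interval lay below those of PLEC and ACTN4 and overlapped that of FLNA. These intervals are not alike, since the backgrounds came from windows of 10000 bases in PLEC, 1000 in ACTN4 and 315 in FLNA and MYH9. A longer window gives a narrower interval. At the 5' end, exon 2 of FLNA and exon 2 of MYH9 had nearly the same ratio of 2.20, over 223 and 139 RIP fragments. ACTN4 had no peak in its 5' part, and the peaks of PLEC there were all intron peaks that did not pass.

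The members' exon and 3' UTR peaks sat where input was plentiful. Backgrounds within the FLNA range of 84.3 to 123 were found at 602 peaks of the list. In those peaks the median fold was 1.67 (quartiles 1.43 and 1.99) and 73.9% passed, against a median fold of 2.41 over all peaks. The 10 FLNA peaks had a median fold of 1.63. The 9 FLNA exon peaks also had a median of 1.63, and the 130 exon peaks of the list in this range had a median of 1.55, of which 60.8% passed. The folds of FLNA therefore lay near the median of peaks with as much input, and no test was made of the difference. The highest fold among the 602 peaks was 2.99, against 35.2 over all peaks. No peak of the list had more than 324 RIP fragments at its summit. Whether the processing limited the number of fragments at a summit, and with it the folds at high background, was not tested. The range was chosen after the values were seen, and the 602 and 130 peaks include those of FLNA itself.

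**Figure D3:**
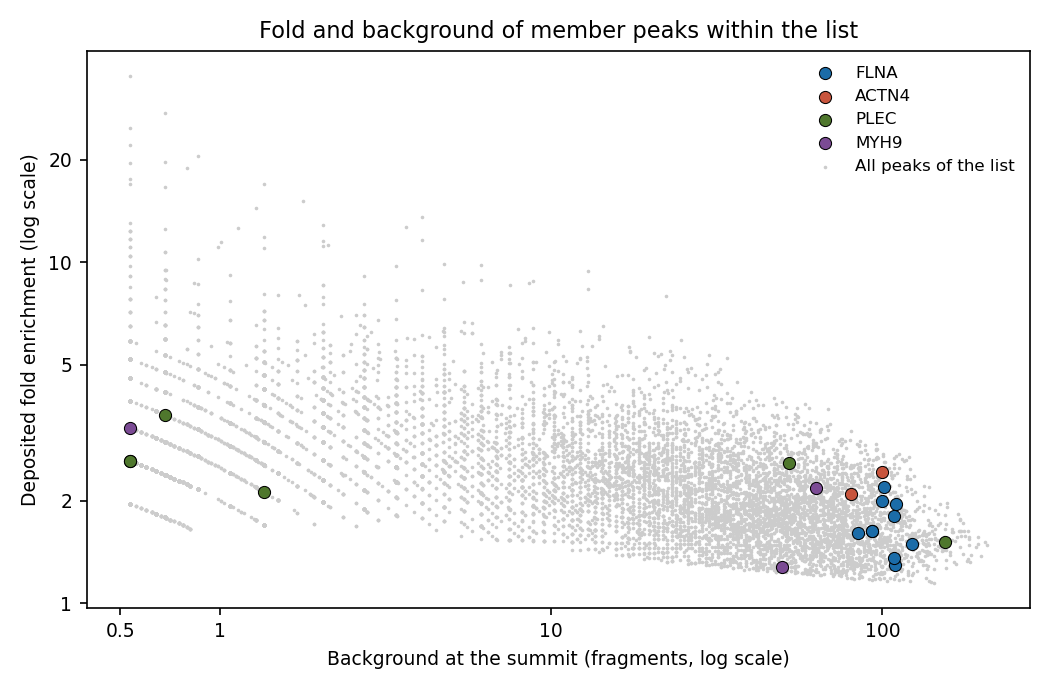
Deposited fold enrichment against background fragments at the summit, both on log scales, for all 14858 peaks (grey) and for the peaks of FLNA, ACTN4, PLEC and MYH9 (coloured). The exon and 3' UTR peaks of the members lie at backgrounds from 49.6 to 155 with folds from 1.28 to 2.58, and their intron peaks lie at the low-background edge where few fragments give folds of 2.12 to 3.57.

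The genes most like FLNA in their passing peaks were looked for among 244 other protein-coding genes with 3 or more of them. Likeness was a distance over the log2 number of passing peaks, their shares in the exon and 3' UTR classes, and their median log2 fold. PABPC1, a poly(A)-binding protein, was nearest (distance 0.552), with 6 passing peaks, 4 of them in exons, and a median fold of 2.07. USP9X, a deubiquitinase (0.571), had 5 exon peaks and 1 in the 3' UTR, with a median fold of 2.27. MET, the hepatocyte growth factor receptor (0.578), and the splicing factor SF1 (0.623) had 6 passing peaks each, 3 of them in exons, with median folds of 1.89 and 1.94. The giant cadherin FAT1 (0.701) had 5 passing peaks, all in exons, at a median fold of 1.71, which is also the median of the 8 in FLNA.

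Other genes of the actin cytoskeleton were examined in 5 groups of 87 genes in all. A peak was found in 62 of them and a passing peak in 45. In the list, 53.1% of the protein-coding genes with a peak had a passing one. The 62 genes held 134 peaks, of which 63 passed, and 37.3% of all peaks of the list did. Passing peaks were 3 of 16 in the paralogs, 8 of 16 in the myosin II group and 18 of 33 in the other bundlers. They were 24 of 29 in the tropomyosin and actin group and 10 of 40 in the membrane linkers. The 63 passing peaks had a median fold of 2.23, and 22 were exon, 20 were 3' UTR and 18 were promoter-class peaks. The promoter class of this annotation holds peaks near a start site, and in short genes it takes in much of the mRNA. That start site can belong to another gene than the one whose span holds the summit. The class therefore does not place a peak at the 5' end of the gene named here.

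The closest relatives of the 6 genes, the other filamins, actinins, spectrins and plakins, had a peak in 7 of 16 genes and a passing one in 3 of those 7, each in an exon. The share is near the 53.1% of the list, and it is not read as a result about the group. DSP, which encodes desmoplakin of the desmosome, had 171 RIP fragments over 95.2 in its last exon, exon 24 (chromosome 6, 7582882 to 7583446), a fold of 1.79, and its −log10 q was 8.62. Like the last exon of PLEC, this exon encodes the plakin repeats. The beta-spectrin SPTBN1, partner of the SPTAN1 product, had a fold of 1.72 over 88 RIP fragments at exon 15. The plakin DST had 2.23 over 40 fragments at exon 8, and the plakin MACF1 had 3.12 over 5 fragments without passing.

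Of 12 genes of non-muscle myosin II and its regulators, 10 had a peak and 7 a passing one. MYL6, the essential light chain, had 189 RIP fragments over 55.1, a fold of 3.39 in a promoter-class peak with a counting interval of 2.63 to 4.51. The regulatory light chains MYL12A and MYL12B had 3' UTR peaks of 2.94-fold (186 RIP fragments) and 2.24-fold (213). RHOA, the GTPase that switches on myosin II through the ROCK kinases, had 2.98-fold over 223 fragments, also in a promoter-class peak. The counting interval of MYH9 exon 2 was 1.68 to 2.89, and the difference from MYL6 was not tested. MYH10, the heavy chain of myosin IIB, had 1.63-fold over 55 fragments and did not pass.

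Of 20 other bundling and crosslinking proteins, 12 had a peak and 11 a passing one. The calponin CNN2 led with 3.24-fold in a promoter-class peak, followed by the coronin CORO1C with 2.88-fold at exon 10 of 11. Cortactin, from CTTN, had 2.36-fold and the transgelin TAGLN2 1.83-fold, both in the 3' UTR. Of 20 tropomyosins, actins and binders of monomers or filament ends, 16 had a peak and 14 a passing one, led by the monomer binder PFN1 (2.83-fold over 275 RIP fragments), TPM3 (3.52-fold over 182), the depolymerising factor DSTN (2.78-fold over 242) and the thymosin TMSB4X (2.83-fold over 202). Short, abundant mRNAs such as these, and those of the actins and keratins, often have processed copies elsewhere in the genome, and whether reads were shared with copies was not tested.

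Membrane linkers had a peak in 17 of 19 genes and a passing one in 10. The ankyrin ANK2 had 164 RIP fragments over 42.1, a fold of 3.82, and dystrophin, from DMD, had 35 over 4.76, a fold of 6.25. Both of these lay in introns. Intron peaks of the list had a median of 3 RIP fragments and a median background of 0.68, and 7.26% passed. Whether the RNA at these intron peaks came from ANK2 and DMD or from another transcript or copy was not tested. The adducin ADD3 had 3.39-fold at exon 9, and radixin, from RDX, had 3.12-fold at exon 7. TLN1, the talin that couples integrins to actin, had a passing 3' UTR peak of 2.06-fold over 81 fragments.

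**Figure D4:**
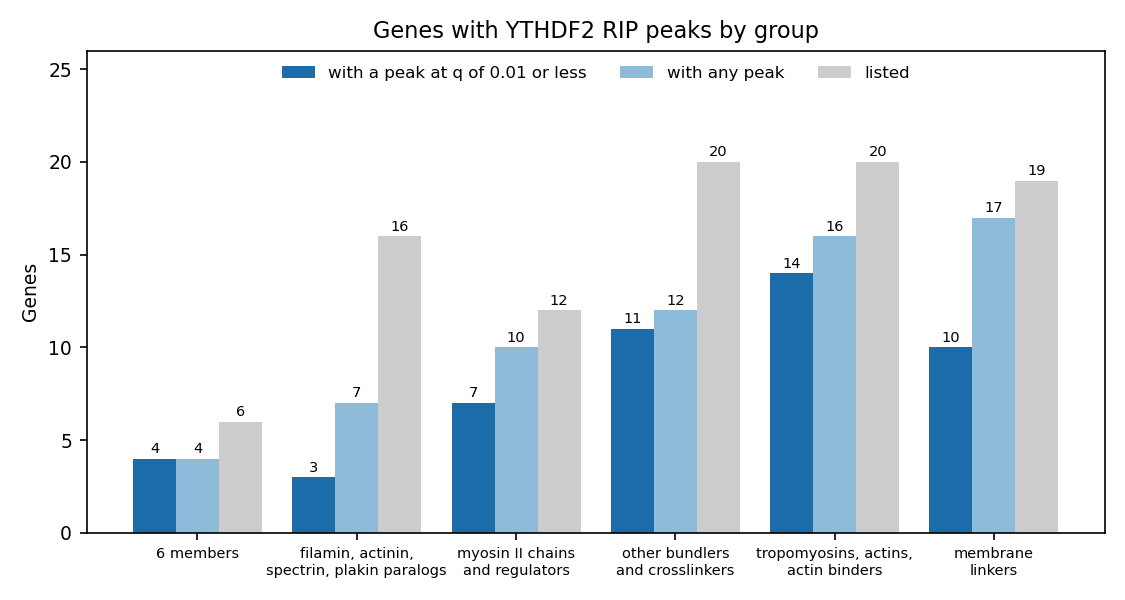
Number of genes with a peak at a q of 0.01 or less (dark blue), with any peak (light blue) and listed (grey), for the 6 genes and for 5 groups of other actin cytoskeleton genes. The paralogs of the 6 genes have passing peaks in 3 of 16 genes, and the group of tropomyosins, actins and actin binders in 14 of 20.

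The peak list gives no RNA levels, so the labelled cell line could be checked against markers only by which of them had peaks. Of 12 hepatocyte and hepatoma markers, KRT8 and KRT18, the keratins of simple epithelia, had passing peaks and APOB one that did not pass. ALB and the other 8 had none. Of 9 markers of other liver or blood cells, HBB had a passing peak of 8 RIP fragments, while PECAM1 (4 fragments), CD68 (123) and LUM (27) had peaks that did not pass.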

How the data were processed

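RIP and input libraries (2 each) of HCCLM3 cells used a commercial magnetic RIP kit and strand-specific pico-input library chemistry, per the labels' protocols. HISAT2, MACS2 and hg38 are named in the submitters' processing notes. Their versions and options, and how libraries were combined, are not stated there, and library depths are unknown. Nothing says whether the replicates were separate cultures. Per the file headers, the authors deposited for each peak a fold (the summit ratio of RIP over background), a −log10 p, a −log10 q, a score (10 times the −log10 p, rounded down) and positions in bases.

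Fold, (k + 1) / (background + 1), and p, the Poisson probability of more than k, were solved for whole k up to 3000. Residuals of the −log10 p were at most 0.000189. Each background above 0.533 was then a whole number of input fragments times 0.68, in a window of 315, 1000 or 10000 bases. On 2000 simulated peaks k came back in 100% of cases, and on the 779 with the 315-base window so did the input. Recovery of the input in the longer windows was not summarised, and the genome-wide level was not simulated. The largest input counts named above exceed those simulated. Ratio intervals are Clopper-Pearson (input counted) or Poisson (genome-wide level). They are narrower where a longer window supplied the input. Gene spans came from RefSeq (GRCh38.p14). Strands came from its promoter table or, for PLEC, the list. Python 3.11.15 and scipy 1.17.1 were used.

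Named were the 6 genes with every peak, in each group up to 4 genes by −log10 q, and 5 genes by likeness to FLNA, the only member with 3 or more passing peaks. MYH10 and TLN1 were added after their values were seen. Members and lists were chosen with earlier results of these data known. No test between samples was possible. Alternatives covered q thresholds, gene assignment, feature classes, fragment minimum and the choice of best peak.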

Additional observations from a re-analysis of the deposited data

How the results depend on the processing

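No paired analysis was possible because the deposited list holds no value per library, and for the same reason no replicate could be left out. Of 23 alternative values, all 23 stayed within 1.5 times the count they vary, within the counting interval of the best peak they replace, or within the interval of the median (1.61 to 2.43). These limits are loose. For PLEC and MYH9 the intervals replaced were those of intron peaks, 0.823 to 348 and 2.04 to 19.2, so almost any fold would stay within them. The interval of the median treats the 21 peaks as independent, though 10 came from FLNA, and it serves only as a yardstick. The 13 passing peaks of the 6 genes were 14 at a q of 0.05 or less (44.7% of the list), 9 at a −log10 q of at least 5 (20.8% of the list), and 13 with overlap of the gene span or with exon and UTR classes only. With the gene of the nearest start site they were 11, because both ACTN4 peaks are then lost. The median fold of the 21 peaks was 2.0, and it was 1.95 over passing peaks, 1.71 over peaks with 20 or more RIP fragments and 2.01 without the added 1. The highest fold was 3.57 in PLEC and 3.26 in MYH9, both of intron peaks, and by −log10 q the best peaks were those of 2.58 and 2.18. FLNA (2.19) and ACTN4 (2.43) had the same best peak under each choice. The other actin genes had 63 passing peaks of 134, where 37.3% of the list passed. The 63 were 73 under the looser q, 47 under the stricter q and 55 with the deposited gene. Depth limits the intron peaks, whose 3 to 5 fragments give wide intervals.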
